A study of Mus musculus with 14 samples.

Results

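The genes described here are 50 genes of the endoplasmic reticulum (ER) that fold, modify, import and inspect secreted and membrane proteins. They were taken by name from a list of ER chaperone, translocon, glycosylation and unfolded protein response genes, and are 50 of the 9474 genes measured. No threshold on their values was used, but the list was chosen with earlier results of these data known. RNA was sequenced from mouse macrophages of strain C57BL/6J in 2 experiments, 14 libraries in all. In culture, monocytes purified from bone marrow were grown for 7 days with the macrophage growth factor CSF1. IL4, a cytokine of type 2 immunity, was added at 20 ng/mL for those 7 days in 4 libraries, and 4 control libraries had CSF1 alone. For CSF1, which both groups received, 25 ng/mL is stated in the growth protocol but 20 ng/mL in the design text. In marrow, mice received acute myeloid leukemia (AML) cells carrying an IL4 cDNA (3 libraries) or an empty vector (3 control libraries), and F4/80-positive bone marrow cells were sorted 12 days later. Both marrow groups therefore carried leukemia. The sources used here name no promoter for the IL4 construct, no amount of IL4 reached in marrow, no ages of the mice and no pooling of animals.

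A secreted protein enters the ER through the SEC61 channel, loses its signal peptide to the signal peptidase and receives sugar chains from the oligosaccharyltransferase while it is still being made. Inside, chaperones such as BiP and the lectins calnexin and calreticulin hold it until it is folded, and protein disulfide isomerases, recharged by the oxidase ERO1, form its disulfide bonds. Chains that fail are pulled back to the cytosol and degraded. When unfolded protein builds up, the membrane sensors IRE1, ATF6 and PERK start the unfolded protein response, in which XBP1 and ATF6 raise the transcription of many of these genes. IL4 is known to make macrophages secrete large amounts of a few proteins, such as the resistin-like RELMα and chitinase-like proteins.

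The ER stress response element, a promoter motif through which ATF6 and XBP1 act together with the factor NF-Y, is shown here because it is what several of the 50 genes share at the DNA level. It was searched for as CCAAT, 9 bases of any kind and CCACG, on both strands, in the 250 bases before to 50 bases after each RefSeq gene start (assembly GRCm38.p6). Of the 50 genes, 41 matched a promoter sequence. The motif was found in 8 of these 41 genes (19.5%), and in 37 of all 27025 genes with a promoter sequence (0.137%). The sequences run 5′ to 3′ on the strand named, with 12 bases on either side of the motif in lower case and the motif in capitals.
Hspa5, chr2:34772013-34772055, plus strand: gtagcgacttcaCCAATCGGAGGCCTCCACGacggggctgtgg
Hsp90b1, chr10:86705626-86705668, minus strand: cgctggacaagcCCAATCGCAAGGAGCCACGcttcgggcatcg
Calr, chr8:84847063-84847105, plus strand: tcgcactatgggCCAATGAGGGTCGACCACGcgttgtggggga
Canx, chr11:50325788-50325830, minus strand: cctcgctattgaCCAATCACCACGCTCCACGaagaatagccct
Pdia6, chr12:17266479-17266521, plus strand: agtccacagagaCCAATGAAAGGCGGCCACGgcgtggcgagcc
Dnajc3, chr14:118937815-118937857, plus strand: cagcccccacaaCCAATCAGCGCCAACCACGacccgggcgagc
Creld2, chr15:88819508-88819550, minus strand: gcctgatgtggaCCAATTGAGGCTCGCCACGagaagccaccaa
Syvn1, chr19:6046520-6046562, plus strand: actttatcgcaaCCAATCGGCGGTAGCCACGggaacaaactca
The motif lay on the gene's own strand in Hspa5, Canx, Pdia6, Dnajc3 and Syvn1, and on the opposite strand in Calr and Creld2. Hsp90b1 held 2 copies, and the one shown is on its own strand. A second form of the element, searched for as ATTGG, 1 base of any kind and CCACG, was found in 2 of the 41 genes, Herpud1 and Dnajb11, and in 12 of all 27025 genes. The motif TGACGTGG, the core of an XBP1-bound element, was found in 1 of the 41 genes, Txndc5, and in 193 of all genes (0.714%). The ATF4-type element TGATGNAAT was found in 0 of the 41 genes and in 293 of all genes (1.08%). These are letter matches, which say nothing about binding in these cells.
Herpud1, chr8:94386365-94386399, plus strand, second form in capitals: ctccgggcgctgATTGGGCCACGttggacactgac
Txndc5, chr13:38528033-38528064, minus strand, TGACGTGG in capitals: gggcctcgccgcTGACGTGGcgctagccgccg

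The deposited values were on a log2 scale, from which whole reads were recovered for 48 of the 50 genes. For Hspa5 and Hsp90b1 no reads were recovered, and the log2 values alone are given. Libraries held 520328 to 810353 recovered reads, and the median of the 48 genes was 81 to 134 reads per library. Levels are given as reads per 1000000 recovered reads (RPM), to set libraries side by side for the same gene. RPM are shares of the recovered total and were not centred. The median log2 value over all genes was 4.076 to 4.111 in culture IL4 libraries and 4.347 to 4.515 in culture controls. Whether groups overlapped was not checked after correcting for this shift. In culture, the libraries numbered 4 of both groups stood apart from the rest of their group: reads of pairs that held IL4 library 4 differed by a chi-square per degree of freedom of 4.14 to 5.89, against 1.36 to 1.64 among the other IL4 libraries, and pairs that held control library 4 by 4.28 to 5.58, against 1.43 to 2.11. IL4 library 4 was the highest of its 4 libraries in 36 of the 50 genes, and in 34.4% of all genes, and control library 4 was the lowest of its group in 28 of the 50 genes and in 40.4% of all genes. Other libraries were also often at an end of their group in the 50 genes: culture control library 2 was highest in 31 (32.5% of all genes), marrow IL4 library 2 highest in 33 (39.5%), marrow IL4 library 1 lowest in 34 (40.3%) and marrow control library 2 highest in 32 (35.1%). Markers of other cells were abundant in marrow: the 6 measured of 16 neutrophil and promyelocyte markers took 4.66 to 5.82% of recovered reads in marrow IL4 libraries and 6.20 to 7.21% in marrow controls, against at most 0.053% in culture. Most of the marrow sum was S100a9, S100a8 and Ngp. By limma 0 of the 6 rose there and 1 fell, Ngp (-0.89). S100a8 (-0.37) and S100a9 (-0.26) did not pass, and nor did Csf3r (0.44), Mmp9 (0.24) and Mmp8 (0.13), which leaned the other way. Of the 12 macrophage markers, reads were recovered for 10, not for Itgam and Lyz2. Those 10 took 0.0459 to 0.103% in marrow IL4 libraries and 0.0626 to 0.0799% in marrow controls, against 0.592 to 0.755% in culture IL4 libraries and 1.14 to 1.28% in culture controls. These sums hide opposite changes. Of the 12 markers, 4 rose and 4 fell in marrow by limma, against 6.70% and 11.5% of all genes. Mertk (3.90), C1qc (3.49), C1qb (3.44) and C1qa (2.77) rose there, and Fcgr1 (-2.70), Lyz2 (-2.28), Csf1r (-1.17) and Cd68 (-1.02) fell. Some had few reads, such as Mertk with 10 to 23 against 0 to 3. In culture 2 rose and 9 fell, against 7.96% and 32.6% of all genes. The 2 measured of 10 erythroid markers, Car2 and Tfrc, summed to 193 to 269 RPM in marrow IL4 libraries and 1478 to 1542 RPM in marrow controls, and to 461 to 1285 RPM in culture IL4 libraries and 66 to 176 RPM in culture controls. Most of the culture sum was Tfrc, at 419 to 1275 RPM with IL4, while Car2 had 9.92 to 41.3 RPM with IL4. Whether the cultures held erythroid cells was not tested. The 4 measured of 9 endothelial and stromal markers summed to 140 to 231 RPM in marrow IL4 libraries and 34 to 51.4 RPM in marrow controls, where 3 rose and 0 fell. Most of that sum was Pecam1, at 131 to 216 RPM with IL4 and 32.4 to 48.4 RPM in controls. The other rises rested on few reads, Col1a2 on 3 to 9 against 0 to 1 and Sparc on 1 to 2 against 0 to 1. In culture the 4 markers summed to 89.8 to 218 RPM in IL4 libraries and 753 to 1849 RPM in controls. There 1 rose (Pecam1) and 3 fell, Col1a1 (-3.04), Col1a2 (-3.12) and Sparc (-3.45), and their part in the falls of ER genes in culture was not tested. The 3 measured of 9 progenitor and blast markers summed to 230 to 263 RPM in marrow IL4 libraries and 123 to 148 RPM in marrow controls. Of these, Gata2 rose (173 to 183 RPM with IL4, 30.3 to 50.2 RPM in controls), Sox4 fell (16.6 to 28 RPM with IL4, 55 to 56 RPM in controls) and Cd34 did not pass (0.23). In culture the 3 summed to 14.9 to 21.3 RPM in IL4 libraries and 36.4 to 81.8 RPM in controls, where 0 rose and 2 fell. The sorted marrow fraction was thus low in the 10 macrophage markers with recovered reads, and which of its cells gave the reads of the 50 genes was not tested.

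Ero1l, an ER oxidase, rose in the IL4 groups of both experiments, and Txndc5, a disulfide isomerase, fell in both. Pdia4 rose in culture, and Xbp1, P4hb, Sel1l, Calr and Hspa5 were among those that rose in marrow. In culture, 2 of the 50 genes rose and 12 fell at a limma adjusted p under 0.05, against 7.96% of all 9474 genes that rose and 32.6% that fell. The median log2 fold change, IL4 minus control, was -0.12 for the 50 genes and -0.36 for all genes. Since the median gene fell, each library was also centred on its own median over all genes, so that changes are read relative to that gene. After centring, 12 of the 50 genes rose and 0 fell, against 14.4% and 12.7% of all genes, and the median of the 50 was 0.24. The genes that rose on both scalings were Ero1l and Pdia4, and each of the 12 falls was lost after centring. At an unadjusted p under 0.05, 17 of the 50 genes rose and 2 fell on the centred scale. Without IL4 library 4, 2 genes fell after centring by limma, Txndc5 and Eif2ak3. On the deposited scale 18 genes fell when both libraries numbered 4 were left out. Of the 12 falls, those of Canx, Uggt1, Edem1 and Stt3a were lost when library 1, 2 or 3 of either group was left out, that of Ostc likewise except for IL4 library 3, and that of Derl2 when library 2, 3 or 4 of either group was left out. All 4 IL4 libraries lay above all 4 controls in 2 of the 50 genes, against 7.49% of all genes, and below them in 9, against 30.2%. In marrow, 9 of the 50 genes rose and 2 fell, against 6.70% of all genes that rose and 11.5% that fell. The median was 0.23 for the 50 genes and -0.06 for all genes, and after centring 16 rose and 1 fell, against 9.45% and 8.92% of all genes. All 3 IL4 libraries lay above all 3 controls in 18 of the 50 genes, against 15.5% of all genes, and below them in 4, against 22.1%. Whether each library is its own culture or animal is not stated, and the p-values then cover only the spread among these libraries, which may be technical. Throughout, fewer cells of a type and less RNA per cell cannot be told apart in these bulk samples.

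**Figure D1:**
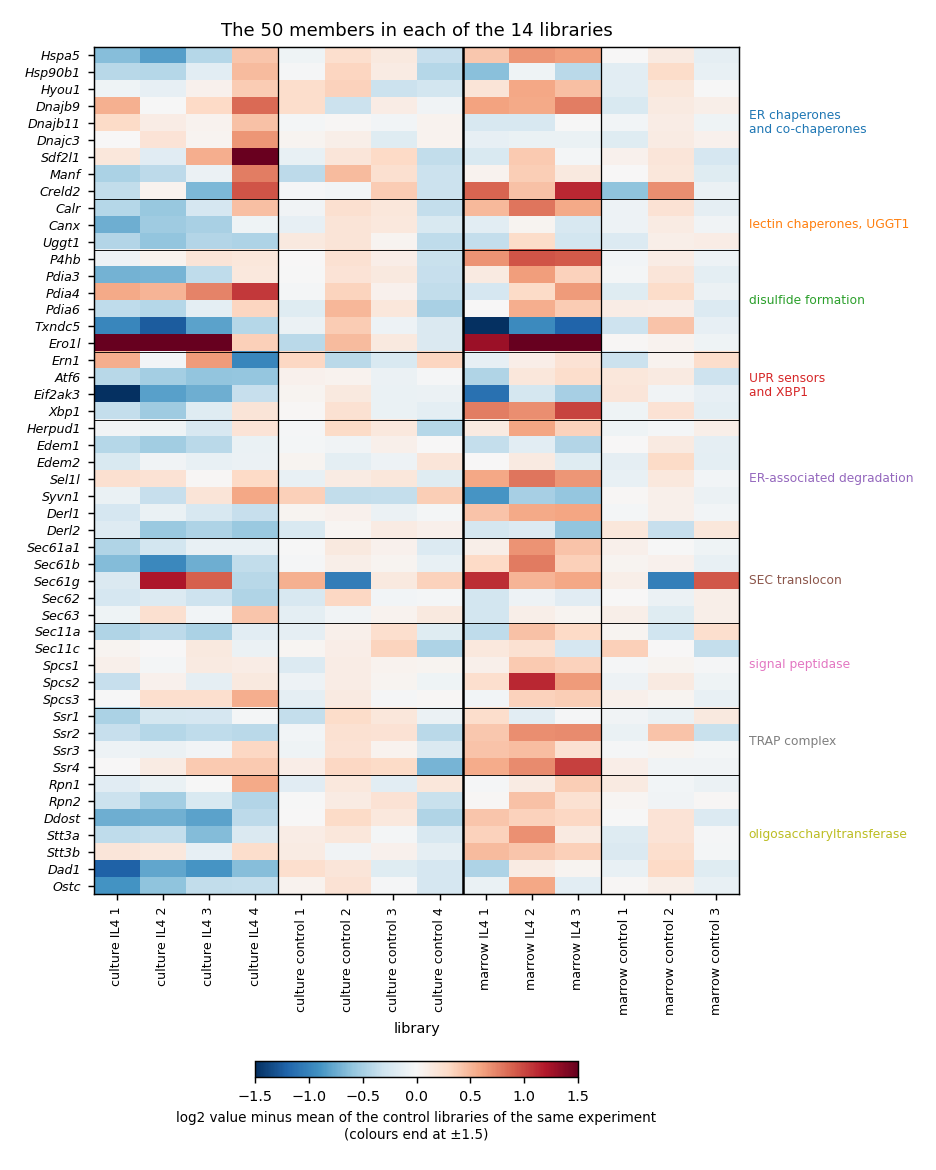
Log2 value of each of the 50 genes in each of the 14 libraries, minus the mean of the control libraries of the same experiment, with genes grouped by role and IL4 libraries left of control libraries in each experiment. Ero1l is high in the IL4 libraries of both experiments apart from culture IL4 library 4 (log2 value 5.84), Txndc5 is low in all 7 IL4 libraries, and culture IL4 library 4 is the highest of its group in all 9 chaperones.

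**Figure D2:**
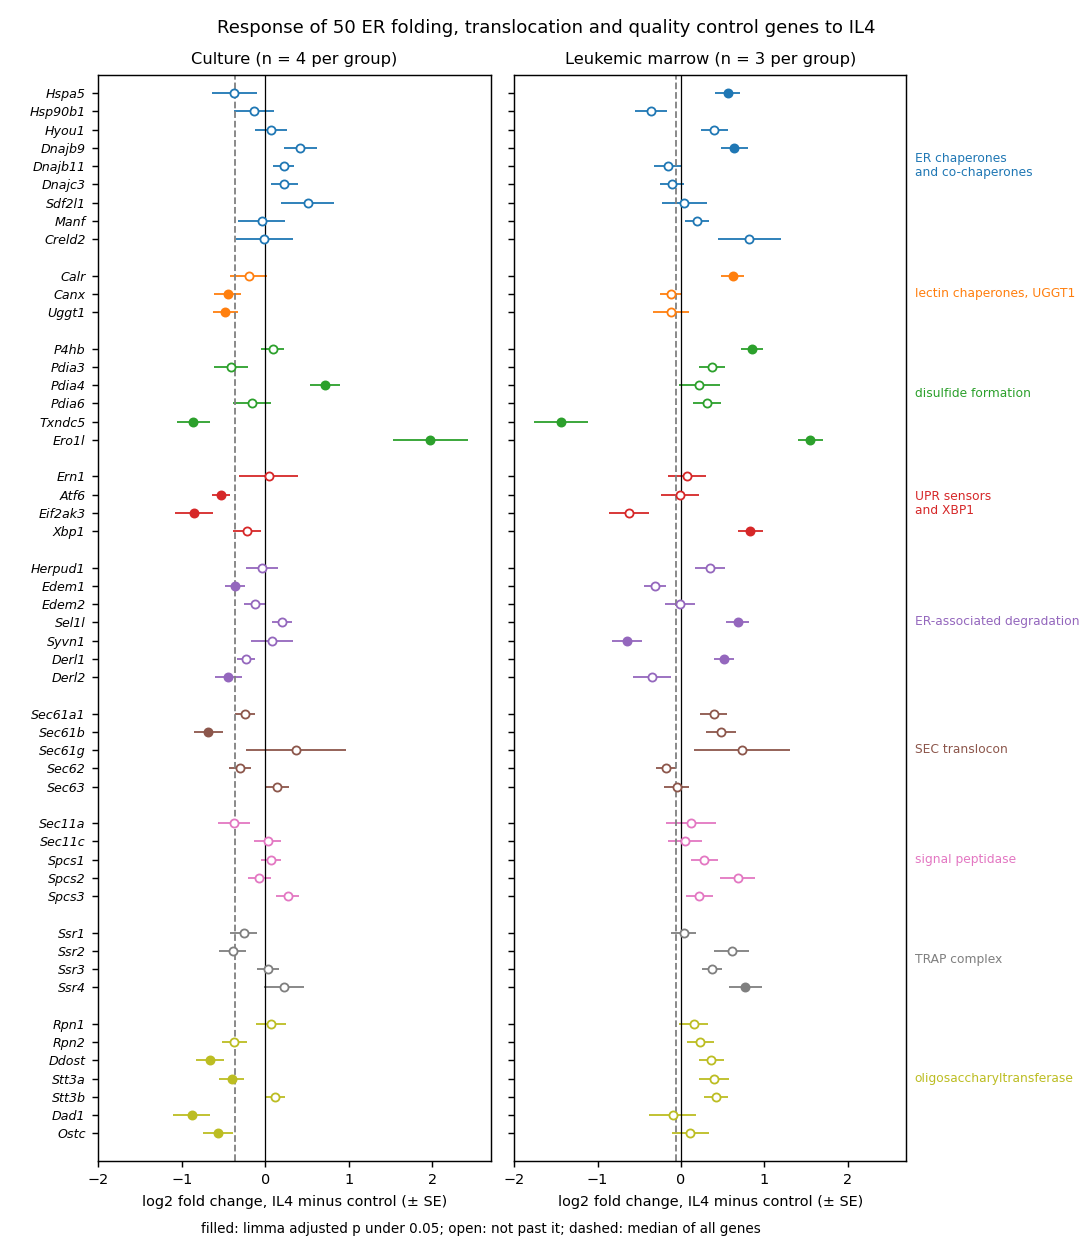
Log2 fold change, IL4 minus control, with its standard error for the 50 genes by role, in culture (left, n = 4 per group) and marrow (right, n = 3 per group). Filled points passed a limma adjusted p of 0.05, and the dashed lines mark the median of all genes at -0.36 in culture and -0.06 in marrow. With each library centred on its own median over all genes, which is not drawn, 12 genes rose and 0 fell in culture, and 16 rose and 1 fell in marrow.

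Disulfide formation held the largest responses. Ero1l (chr14:45283087-45318771, minus strand, mm10), the oxidase that hands electrons from protein disulfide isomerase to oxygen, had 322, 376, 284 and 72.8 RPM in culture IL4 libraries 1 to 4, against 43.2, 78, 62.3 and 48.7 RPM in culture controls 1 to 4. Libraries 1 to 3 lay above all controls, while IL4 library 4 lay below control library 2, so the groups overlapped. The log2 fold change was 1.98 ± 0.45 (SE, n = 4 per group), a 3.93-fold rise (adjusted p = 0.00675), and 2.52 without IL4 library 4 (adjusted p = 4.92e-05). In marrow Ero1l had 448, 636 and 539 RPM in the IL4 libraries, against 183, 189 and 174 RPM in controls, with no overlap. That was a log2 fold change of 1.55 ± 0.15 (n = 3 per group), a 2.92-fold rise (adjusted p = 0.000255), and the rise was called in every fit that left out a library in both experiments. Per kilobase of exon, Ero1l ranked 16 of 48 in culture IL4 libraries and 45 of 48 in culture controls, and 6 of 48 in marrow IL4 libraries and 28 of 48 in marrow controls, where rank 1 is the highest level.

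Pdia4 (chr6:47796141-47813430, minus strand), a protein disulfide isomerase that works with BiP, had 278, 268, 314 and 395 RPM in culture IL4 libraries, against 186, 236, 196 and 148 RPM in culture controls. All 4 IL4 libraries lay above all 4 controls. The log2 fold change was 0.72 ± 0.18 (adjusted p = 0.00953) and 1.08 after centring (adjusted p = 0.000726). In marrow the groups overlapped, at 79.2, 115 and 149 RPM with IL4 and 82.8, 115 and 89.3 RPM in controls, and the change of 0.22 ± 0.25 did not pass (adjusted p = 0.586). The responses in the 2 experiments differed by 0.50, which did not pass either (adjusted p = 0.27).

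Txndc5 (chr13:38500079-38528824, minus strand), a thioredoxin-domain isomerase also called ERp46, moved the other way. It had 84.5, 70.6, 95.8 and 126 RPM in culture IL4 libraries, against 159, 216, 159 and 146 RPM in culture controls. In marrow it had 44.2, 102 and 86.4 RPM in IL4 libraries, against 161, 269 and 183 RPM in controls, again with no overlap. The log2 fold change was -0.86 ± 0.20 in culture (adjusted p = 0.00765), -0.50 after centring, which did not pass (adjusted p = 0.0803), and -1.44 ± 0.32 in marrow (adjusted p = 0.0139; -1.33 after centring, adjusted p = 0.0154). The marrow call was lost without control library 2. Txndc5 is abundant in plasma cells, and the 6 measured of 16 plasma cell and B cell markers summed to 73.7 to 117 RPM in marrow IL4 libraries and 271 to 289 RPM in marrow controls. In marrow 0 of the 6 rose and 5 fell, among them Sdc1 on only 0 to 2 reads with IL4 and 3 to 13 in controls. In culture the same markers summed to 887 to 1018 RPM with IL4 and 252 to 476 RPM in controls, where 4 of the 6 rose, Sdc1 among them (458 to 625 RPM with IL4, 41.6 to 171 RPM in controls), and 1 fell, Cd79b (-2.38, adjusted p = 0.000113). Most of the culture IL4 sum was Sdc1, Blnk (202 to 281 RPM) and Irf4 (92.6 to 104 RPM), while Cd79b had 1 read in each culture IL4 library. Whether the cultures held plasma cells or B cells was not tested. The part of such cells in the Txndc5 values was not tested either.

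P4hb (chr11:120560298-120573253, minus strand), the classical protein disulfide isomerase, had 707, 770, 846 and 840 RPM in culture IL4 libraries and 754, 862, 798 and 596 RPM in culture controls, with overlapping groups. Its culture change of 0.09 ± 0.14 did not pass (adjusted p = 0.639), was -0.02 without control library 4 and reached 0.45 after centring (adjusted p = 0.019). In marrow it had 954, 1145 and 1130 RPM in IL4 libraries, against 578, 646 and 563 RPM in controls. This was a rise of 0.85 ± 0.13 (adjusted p = 0.00263), called without any 1 of the 6 libraries. Pdia3, the isomerase that partners calnexin and calreticulin, did not pass in culture (-0.41, adjusted p = 0.136) or marrow (0.37, adjusted p = 0.151), and nor did Pdia6 (-0.16 and 0.31). Without culture IL4 library 4, Pdia3 was called as falling.

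**Figure D3:**
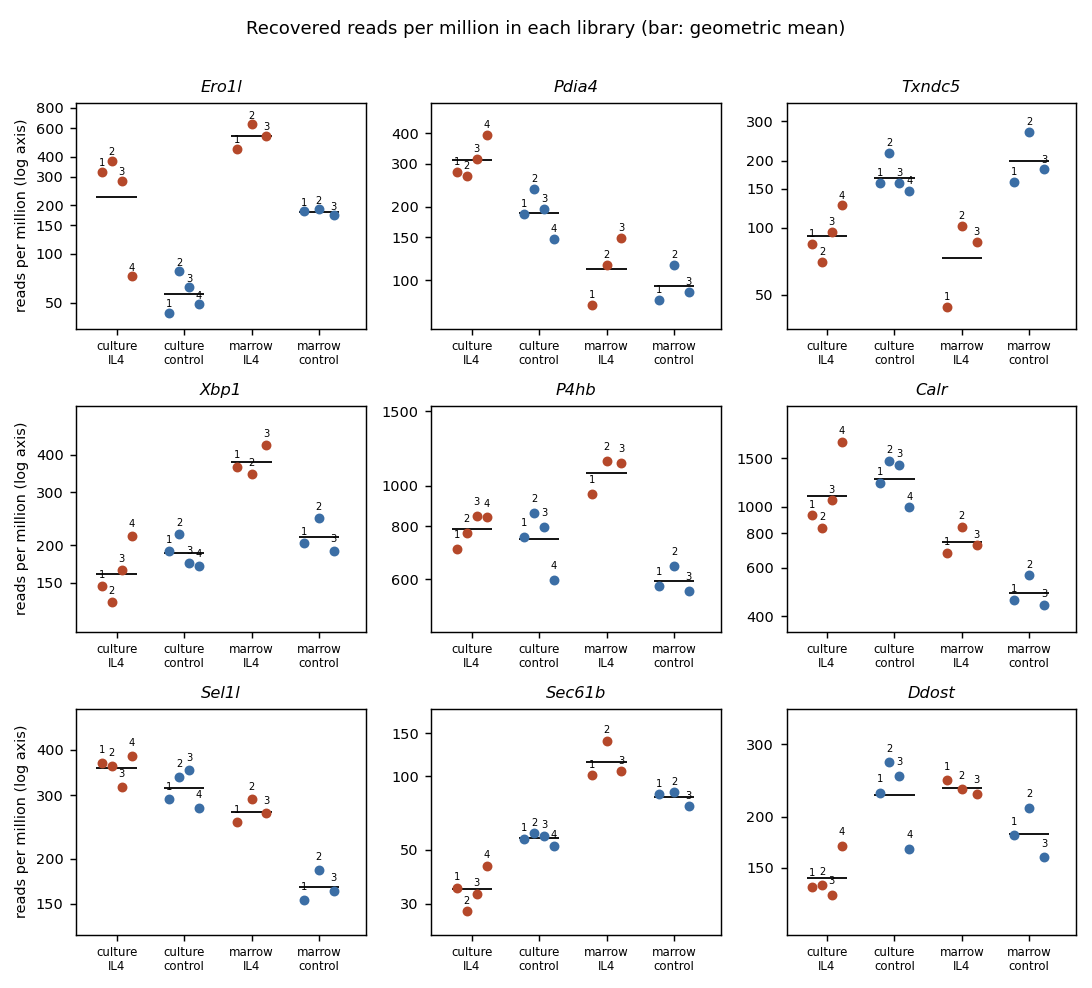
Recovered reads per 1000000 (RPM) on a log axis in each library (points, numbered by library) for 9 of the 50 genes, IL4 groups in red left of control groups in blue, with bars at the geometric means. Ero1l in culture IL4 library 4 (72.8 RPM) lies far below libraries 1 to 3 (284 to 376 RPM), and P4hb, Xbp1 and Sel1l have no overlap between groups in marrow.

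Of the 9 ER chaperones and co-chaperones, 0 rose and 0 fell in culture by limma, also at an unadjusted p under 0.05 (median 0.07). The shares over all genes were 7.96% that rose and 32.6% that fell in culture. In marrow 2 of the 9 rose and 0 fell (median 0.19), against 6.70% and 11.5% of all genes. Hspa5 (chr2:34771970-34777547, plus strand) encodes BiP, the central ER chaperone and the repressor of the stress sensors. Its log2 values were 13.22, 13.04, 13.44 and 14.28 in culture IL4 libraries, against 13.80, 14.12, 14.01 and 13.52 in culture controls. Libraries numbered 4 lay on the far side in both groups: IL4 libraries 1 to 3 were below all controls and IL4 library 4 above all of them. With all 8 libraries the change was -0.37 ± 0.27 (adjusted p = 0.291), and without IL4 library 4 Hspa5 fell by 0.63 on the log2 scale (adjusted p = 0.0277). After centring the change with all libraries was -0.00. In marrow the values were 13.28, 13.54 and 13.50 in IL4 libraries and 12.88, 13.02 and 12.74 in controls, a rise of 0.56 ± 0.15 (adjusted p = 0.0359). That call was lost when any 1 library other than IL4 library 1 was left out, and it held after centring (0.66, adjusted p = 0.0163).

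Hsp90b1, the ER form of HSP90 also called GRP94, gave log2 values of 13.47, 13.45, 13.73 and 14.36 in culture IL4 libraries and 13.87, 14.20, 14.01 and 13.45 in culture controls. It showed the same split of the libraries numbered 4, with a change of -0.13 ± 0.24 (adjusted p = 0.699; 0.24 after centring) that became -0.47 without both of them (adjusted p = 0.0262). In marrow it did not follow Hspa5, at -0.36 ± 0.19 (adjusted p = 0.229). Dnajb9, the BiP co-chaperone ERdj4, had 72.4, 49.3, 61.2 and 91 RPM in culture IL4 libraries and 60.5, 39, 53.7 and 48.7 RPM in culture controls. Its culture change of 0.42 ± 0.20 passed after centring only (0.78, adjusted p = 0.015). In marrow Dnajb9 had 49.7, 48 and 55.9 RPM with IL4, against 27.6, 35.6 and 34.8 RPM in controls, a rise of 0.64 ± 0.16 (adjusted p = 0.0235), which was lost without IL4 library 3, control library 1 or control library 3. The co-chaperone genes Dnajb11 (0.22; 0.59 after centring, adjusted p = 0.00936) and Dnajc3 (0.23; 0.59 after centring, adjusted p = 0.0233) also rose in culture on the centred scale alone.

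The remaining chaperones, Hyou1, Sdf2l1, Manf and Creld2, did not pass in either experiment as deposited. Hyou1, a nucleotide exchange factor of BiP, rose in marrow after centring (0.51, adjusted p = 0.0437). In culture, all 9 chaperone genes were highest in IL4 library 4 among the 4 IL4 libraries. Sdf2l1, which binds BiP and its co-chaperones, had 250 RPM there, against 78.6 to 129 RPM in the other IL4 libraries and 69.2 to 109 RPM in controls. Manf, a secreted ER-resident protein, had 203 RPM there, against 85.8 to 111 RPM in the other IL4 libraries, and Creld2, an ER protein rich in cysteine, had 64.5 RPM against 20.4 to 34.6 RPM. The library with the highest chaperones was thus the one with the lowest Ero1l of its group.

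Of the 3 genes of the lectin cycle, 0 rose and 2 fell in culture, against 7.96% and 32.6% of all genes. In marrow 1 rose and 0 fell, against 6.70% and 11.5%. After centring, 0 of the 3 rose and 0 fell in culture. Calr (chr8:84841850-84846934, minus strand), the soluble lectin calreticulin, had 929, 840, 1053 and 1720 RPM in culture IL4 libraries and 1220, 1466, 1413 and 994 RPM in culture controls. The groups overlapped through the libraries numbered 4, the change was -0.20 ± 0.22 (adjusted p = 0.489; 0.16 after centring), and Calr fell by 0.53 without both of them (adjusted p = 0.00992). In marrow it had 681, 846 and 723 RPM with IL4, against 459, 563 and 440 RPM in controls, a rise of 0.62 ± 0.14 (adjusted p = 0.0176). The call was lost without control library 1 or control library 3. Canx, the membrane lectin calnexin, had 475, 538, 557 and 754 RPM in culture IL4 libraries and 727, 892, 876 and 681 RPM in culture controls, with IL4 library 4 inside the control range. It fell by 0.45 on the log2 scale (adjusted p = 0.0452; -0.09 after centring). In marrow it had 422, 482 and 399 RPM with IL4 and 448, 515 and 452 RPM in controls, at -0.12 (adjusted p = 0.574). Uggt1, the enzyme that tags unfolded glycoproteins for another round, fell in culture (-0.48, adjusted p = 0.0311; -0.12 after centring), with all IL4 libraries at 165 to 185 RPM and all controls at 195 to 285 RPM, and was at -0.12 in marrow.

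Of the 4 genes of the stress sensors and Xbp1, 0 rose and 2 fell in culture, against 7.96% and 32.6% of all genes. In marrow 1 rose and 0 fell, against 6.70% and 11.5%. After centring, 0 of the 4 rose and 0 fell in culture. Xbp1 (chr11:5520659-5525893, plus strand), the transcription factor whose mRNA is spliced by IRE1, had 146, 129, 165 and 215 RPM in culture IL4 libraries and 191, 218, 175 and 171 RPM in culture controls. The groups overlapped and the change of -0.22 ± 0.17 did not pass (adjusted p = 0.323; 0.14 after centring). In marrow Xbp1 had 365, 344 and 431 RPM with IL4, against 203, 246 and 192 RPM in controls. All 3 IL4 libraries lay above all controls, a rise of 0.83 ± 0.15 or 1.77-fold (adjusted p = 0.00566), called without any 1 of the 6 libraries. These are reads of the whole gene and do not show its splicing. Xbp1 is also a plasma cell gene, and the plasma cell and B cell markers were lower in marrow IL4 libraries, as given above. Of these markers, Sdc1 had only 0 to 2 reads in marrow IL4 libraries and 3 to 13 in marrow controls, and Prdm1 0 to 2 and 0 to 4. The part of plasma cells in the Xbp1 values was not tested.

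Eif2ak3, the gene of the sensor kinase PERK, had 24.1, 39.9, 42.4 and 56.2 RPM in culture IL4 libraries, against 74, 78, 65.8 and 67.6 RPM in culture controls. The groups did not overlap, and the log2 fold change was -0.85 ± 0.23 (adjusted p = 0.0157), or -0.49 after centring, which did not pass (adjusted p = 0.147). The marrow libraries held 42.4, 76.9 and 66.1 RPM with IL4 and 105, 89 and 84.7 RPM in controls, also without overlap, but -0.62 ± 0.24 did not pass (adjusted p = 0.0993). Atf6, the sensor cleaved in the Golgi, had 165, 154, 146 and 147 RPM in culture IL4 libraries, against 234, 227, 206 and 220 RPM in culture controls. The fall of 0.53 on the log2 scale (SE 0.11, adjusted p = 0.00414) had no overlap and was -0.16 after centring (adjusted p = 0.313). In marrow Atf6 was at -0.01 (0.09 after centring). Ern1, the gene of IRE1, did not pass in culture (0.04, between -0.16 and 0.38 with 1 library left out) or marrow (0.07).

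Of the 7 genes of ER-associated degradation, 0 rose and 2 fell in culture, against 7.96% and 32.6% of all genes. In marrow 2 rose and 1 fell, against 6.70% and 11.5%. After centring, 1 of the 7 rose and 0 fell in culture, and 2 rose and 0 fell in marrow. SEL1L and the ubiquitin ligase HRD1, encoded by Syvn1, form the complex that draws misfolded proteins out of the ER, and their genes parted in marrow. Sel1l (chr12:91806043-91849157, minus strand) had 252, 292 and 267 RPM in marrow IL4 libraries, against 154, 186 and 163 RPM in marrow controls, a rise of 0.68 ± 0.14 (adjusted p = 0.00907), called without any 1 library. Syvn1 (chr19:6046576-6053712, plus strand) had 57.1, 75 and 71.2 RPM in marrow IL4 libraries, against 107, 112 and 99.9 RPM in marrow controls. It fell by 0.65 on the log2 scale (SE 0.18, adjusted p = 0.0341), a call lost after centring (-0.55, adjusted p = 0.0545) and without any 1 library except IL4 library 2. In culture Sel1l had 369, 361, 316 and 385 RPM with IL4 and 292, 337, 351 and 277 RPM in controls, which passed after centring only (0.20; 0.56 after centring, adjusted p = 0.00481), and Syvn1 was at 0.08 ± 0.25.

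Derl1, a channel-like Derlin protein of the same pathway, had 147, 165, 149 and 139 RPM in culture IL4 libraries, against 184, 183, 166 and 176 RPM in culture controls. All IL4 libraries lay below all controls, but -0.23 ± 0.11 did not pass (adjusted p = 0.103), and the value was 0.13 after centring. The marrow libraries held 199, 217 and 222 RPM with IL4, against 144, 155 and 142 RPM in controls, a rise of 0.52 ± 0.12 (adjusted p = 0.0166), which was lost without IL4 library 3, control library 1 or control library 3. Derl2, its paralog, fell in culture (-0.44, adjusted p = 0.0464; -0.08 after centring), as did Edem1, a lectin that marks glycoproteins for disposal (-0.36, adjusted p = 0.0305; -0.00 after centring). In marrow these were at -0.35 and -0.31 and did not pass. Edem2, a mannosidase of the same step, and Herpud1, which scaffolds the HRD1 complex, passed in neither experiment. Herpud1 had 52.3, 51.9, 45.5 and 62.9 RPM in culture IL4 libraries and 54.3, 65.6, 60.6 and 40.9 RPM in culture controls, and 112, 154 and 130 RPM in marrow IL4 libraries against 97.4, 100 and 109 RPM in marrow controls.

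Of the 5 genes of the SEC translocon, 0 rose and 1 fell in culture by limma as deposited, against 7.96% and 32.6% of all genes. In marrow 0 rose and 0 fell, against 6.70% and 11.5%. There 2 rose both after centring, against 9.45% of all genes, and at an unadjusted p under 0.05. In culture 1 of the 5 rose and 0 fell after centring. Sec61b (chr4:47474658-47483242, plus strand), a small subunit of the channel, had 34.9, 28, 33 and 43 RPM in culture IL4 libraries, against 55.5, 58.5, 57.1 and 51.9 RPM in culture controls. The groups did not overlap, at -0.68 ± 0.17 (adjusted p = 0.00901; -0.32 after centring, adjusted p = 0.167). In marrow Sec61b had 101, 140 and 105 RPM with IL4, against 84.4, 85.8 and 75.7 RPM in controls, at 0.48 ± 0.18 (adjusted p = 0.0909; 0.58 after centring, adjusted p = 0.0429). Sec61a1, the pore subunit, had 164, 185, 206 and 208 RPM in culture IL4 libraries and 226, 246, 234 and 197 RPM in culture controls (-0.24, adjusted p = 0.15; 0.13 after centring). The marrow libraries held 256, 384 and 323 RPM with IL4, against 253, 239 and 228 RPM in controls (0.39, adjusted p = 0.117; 0.50 after centring, adjusted p = 0.047). Sec61g, the smallest subunit, had 1.77 to 23.9 RPM over all libraries and its differences were not detectable at this depth. Sec63, which brings BiP to the channel, rose in culture after centring only (0.50, adjusted p = 0.028), and Sec62, its partner, passed in neither experiment.

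Of the 5 signal peptidase genes, 0 passed limma's threshold as deposited in either experiment, and 0 in culture and 1 in marrow had an unadjusted p under 0.05. The lowest adjusted p was 0.0558, for Spcs2 in marrow. Spcs2, a non-catalytic subunit, had 177, 325 and 230 RPM in marrow IL4 libraries, against 140, 162 and 141 RPM in marrow controls (0.68 ± 0.21; 0.78 after centring, adjusted p = 0.0264). Spcs1 (0.44, adjusted p = 0.0188) and Spcs3 (0.63, adjusted p = 0.00743) rose in culture after centring only, and the catalytic subunits Sec11a and Sec11c passed on neither scaling. The TRAP complex sits beside the channel and helps some signal peptides through. Of its 4 genes, 0 rose and 0 fell in culture by limma (1 fell at an unadjusted p under 0.05). Over all genes, signal peptidase included, 7.96% rose and 32.6% fell in culture. In marrow 1 gene of the TRAP complex rose and 0 fell, against 6.70% and 11.5% of all genes. Ssr4, its delta subunit, had 144, 160 and 200 RPM in marrow IL4 libraries, against 104, 93.9 and 93.8 RPM in marrow controls, a rise of 0.77 ± 0.20 (adjusted p = 0.0272), lost without any 1 library except IL4 library 1. In culture it had 93.9, 101, 122 and 124 RPM with IL4 and 101, 115, 114 and 58.2 RPM in controls (0.23, adjusted p = 0.468). Ssr2, the beta subunit, had 55, 51.9, 53.4 and 52.9 RPM in culture IL4 libraries and 69.1, 81.6, 81.4 and 53.5 RPM in culture controls, and control library 4 lay inside the IL4 range (-0.39, adjusted p = 0.0726; -0.03 after centring). The marrow libraries held 107, 131 and 132 RPM with IL4 and 74.6, 108 and 63.6 RPM in controls, which overlapped (0.61, adjusted p = 0.0726; 0.71 after centring, adjusted p = 0.0364). Ssr3, the gamma subunit, rose in both experiments after centring only (0.39 in culture and 0.48 in marrow), and Ssr1, the alpha subunit, passed in neither experiment.

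Of the 7 genes of the oligosaccharyltransferase, 0 rose and 4 fell in culture on the deposited scale (median -0.40), against 32.6% of all genes that fell. After centring, 0 of the 7 fell by limma, and 1 at an unadjusted p under 0.05 (median -0.04). Ddost (chr4:138304730-138312628, plus strand), a structural subunit, had 135, 136, 129 and 170 RPM in culture IL4 libraries, against 228, 271, 251 and 167 RPM in culture controls. The groups overlapped through control library 4, and the change was -0.66 ± 0.17 (adjusted p = 0.0132; -0.30 after centring, adjusted p = 0.183). Dad1, the small subunit named for defender against cell death, had 36.2, 49.3, 45.5 and 54.6 RPM in culture IL4 libraries, against 102, 95.7, 74.4 and 72.3 RPM in culture controls. It had the largest fall of the 50 genes in culture, -0.88 ± 0.22 (adjusted p = 0.0105; -0.52 after centring, adjusted p = 0.1). Stt3a, the catalytic subunit that acts during translocation, fell (-0.40, adjusted p = 0.0475; -0.04 after centring), while Stt3b, the other catalytic subunit, did not (0.12; 0.48 after centring, adjusted p = 0.0133). Ostc, which ties the STT3A enzyme to the channel, fell (-0.56, adjusted p = 0.0286; -0.19 after centring). In marrow 0 of the 7 passed limma's threshold as deposited (2 rose at an unadjusted p under 0.05), and Stt3b rose after centring (0.53, adjusted p = 0.0318). Ddost had 245, 233 and 227 RPM in marrow IL4 libraries, against 180, 210 and 159 RPM in marrow controls, at 0.36 ± 0.15 (adjusted p = 0.131). Rpn1 and Rpn2, the ribophorins, passed in neither experiment.

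Ero1l was the only gene of the 50 that rose in both experiments on the deposited scale and Txndc5 the only one that fell in both, and 27 of the 50 were called in neither. After centring 6 rose in both, namely Dnajb9, P4hb, Ero1l, Sel1l, Ssr3 and Stt3b. The difference between the responses was tested as an interaction over all 14 libraries, culture response minus marrow response. It passed for 23.1% of all genes, with 16.6% lower and 6.45% higher in culture, and for 9 of the 50 genes, all 9 lower in culture. The largest were Sec61b (-1.16 ± 0.24, adjusted p = 0.00301), Xbp1 (-1.04 ± 0.24, adjusted p = 0.00649), Ddost (-1.03 ± 0.24, adjusted p = 0.00745) and Ssr2 (-1.0 ± 0.27, adjusted p = 0.0154). The others were Stt3a (-0.79), P4hb (-0.76), Derl1 (-0.76), Spcs2 (-0.75) and Sec61a1 (-0.63). The median difference over all genes was -0.30, and after centring 7 of the 50 passed, 6 lower in culture, against 9.50% of all genes, and 1 higher, against 9.38%. Of the 9, those that passed after centring were Sec61b (-0.90), Xbp1 (-0.79), Ddost (-0.77), Ssr2 (-0.74), P4hb (-0.50) and Derl1 (-0.50). Dnajb11 was the one higher in culture on that scale (0.64, adjusted p = 0.0303). The experiments differed in tissue, in cell mixture and in the source and amount of IL4, and these cannot be told apart.

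**Figure D4:**
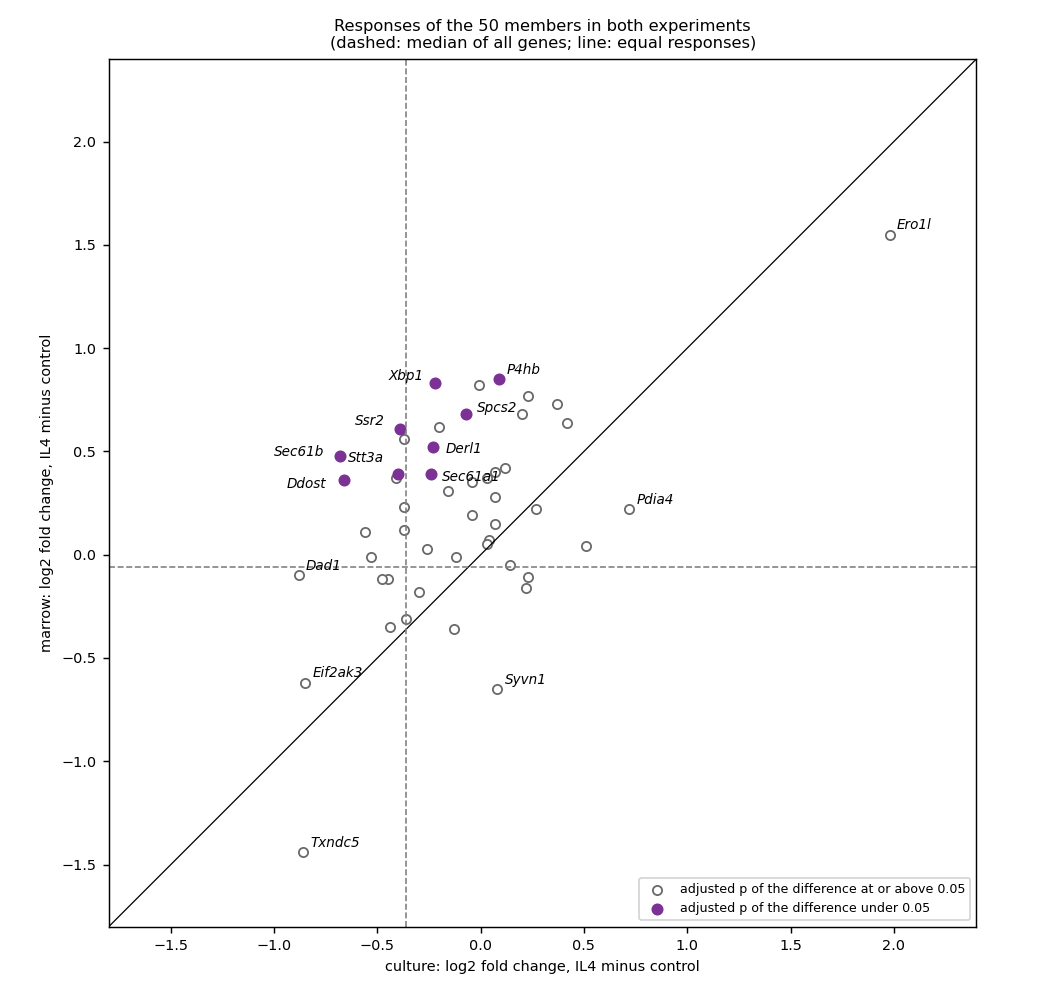
Log2 fold change, IL4 minus control, in culture (horizontal) against marrow (vertical) for the 50 genes, with the median of all genes dashed and a line where both responses are equal. Filled points mark the 9 genes whose responses differed at a limma adjusted p under 0.05, all above the line, from Sec61a1 (difference -0.63) to Sec61b (difference -1.16); after centring 6 of these 9 passed.

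Recovered reads of 25 listed genes of secreted proteins, summed, took a larger share in the IL4 libraries of both experiments. Of 34 secreted proteins of macrophages on a list chosen with earlier results of these data known, 29 were measured, and whole reads were recovered for 25. No reads were recovered for Lyz2, Ctsb, Ctsd and Ccl9, so the shares leave them out. Lyz2 fell in culture (log2 fold change -2.25) and marrow (-2.28), and Ctsb fell in marrow (-0.54). Ccl9 rose in culture (1.47) and Ctsd in marrow (1.21). The 25 genes with recovered reads took 10.6, 11.1, 9.70 and 9.43% of recovered reads in culture IL4 libraries, against 2.77, 2.17, 2.14 and 4.09% in culture controls. In marrow they took 3.42, 3.60 and 3.94% in IL4 libraries, against 0.869, 1.01 and 0.940% in controls. The IL4 libraries lay above all controls in both experiments. Of the 29, 15 rose and 12 fell in culture and 14 rose and 5 fell in marrow, and few genes held most of the reads. Chil3, a chitinase-like protein, had 26294 to 36862 RPM in culture IL4 libraries and 2.47 to 10.6 RPM in culture controls, and 29443 to 30758 RPM in marrow IL4 libraries and 3337 to 4432 RPM in marrow controls. Mmp12, a macrophage elastase, had 18195 to 37137 RPM in culture IL4 libraries and 401 to 4650 RPM in culture controls, and Retnla, which encodes RELMα, had 6528 to 19217 RPM in culture IL4 libraries and 0 reads in culture controls. The 48 ER genes with recovered reads, without Hspa5 and Hsp90b1, took 0.911, 0.922, 0.983 and 1.22% in culture IL4 libraries, against 1.07, 1.22, 1.15 and 0.949% in culture controls, and the groups overlapped. In marrow they took 0.949, 1.16 and 1.06% in IL4 libraries, against 0.818, 0.903 and 0.803% in controls, with no overlap. Per kilobase of exon, Calr, P4hb and Pdia3 held the first 3 ranks among the 48 genes in every group in one order or another, and the median over the 48 was 35.3 reads per kilobase per 1000000 in culture IL4 libraries, 37.3 in culture controls, 44.6 in marrow IL4 libraries and 37.0 in marrow controls.

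**Figure D5:**
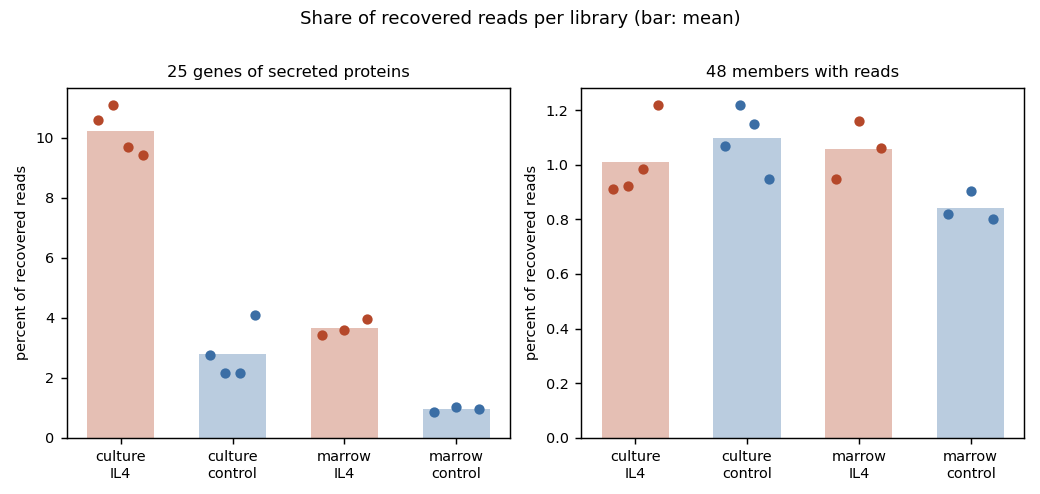
Percent of recovered reads in each library taken by 25 genes of secreted proteins (left) and by 48 ER genes (right), those with recovered reads, IL4 groups in red left of controls in blue, with bars at the means. Lyz2, Hspa5 and Hsp90b1 are among the genes left out because no reads were recovered. The secreted genes took 9.43 to 11.1% in culture IL4 libraries and 2.14 to 4.09% in culture controls, while the ER genes took 0.911 to 1.22% in culture IL4 libraries and 0.949 to 1.22% in culture controls.

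Other genes of the same pathway were followed through 6 lists of 133 genes, of which 125 were measured. In culture 8 rose and 22 fell, against 7.96% and 32.6% of all genes, and after centring 13 rose and 3 fell, against 14.4% and 12.7%. In marrow 13 rose and 6 fell, against 6.70% and 11.5% of all genes, and after centring 19 rose and 4 fell, against 9.45% and 8.92%. Regulators of the unfolded protein response had the most rises, 5 of 15 in culture with 2 falls, and 6 of 15 in marrow with 0 falls, and the risers were Ddit3, Trib3, Ppp1r15b, Wfs1 and Atf3 in culture and Creb3l2, Atf4, Ddit3, Trib3, Bax and Tmbim6 in marrow. Trib3, a pseudokinase induced by ATF4 and CHOP, rose by 3.08 ± 0.51 in culture (9.92 to 59.9 RPM with IL4, 1.77 to 5.19 RPM in controls, adjusted p = 0.00128) and by 5.81 ± 0.61 in marrow (84.7 to 163 RPM with IL4, 0 to 4.87 RPM in controls, adjusted p = 0.000409). Ddit3, which encodes CHOP and is given with values after they were seen, rose by 1.26 in culture (adjusted p = 0.0172) and by 1.98 in marrow (adjusted p = 0.0377). Its reads were few, 13 to 38 with IL4 against 8 to 11 in culture controls. In marrow they were 23 to 39 against 3 to 13. Atf4 rose in marrow (0.96 ± 0.13, adjusted p = 0.00141) and did not pass in culture (0.21, adjusted p = 0.42). Wfs1, an ER membrane protein that restrains ATF6, had 324 to 370 RPM in culture IL4 libraries, against 3.55 to 20.4 RPM in culture controls, a rise of 5.10 ± 0.38 (adjusted p = 1.23e-05), and did not pass in marrow (-0.88, adjusted p = 0.253). The falls in culture were of Mbtps1 and Mbtps2, the proteases that cleave ATF6, and both were lost after centring (adjusted p = 0.0847 and 0.5).

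The counts of the 5 lists that follow stand against 7.96% of all genes that rose and 32.6% that fell in culture. In marrow these shares were 6.70% and 11.5%. After centring they were 14.4% and 12.7% in culture, and 9.45% and 8.92% in marrow. Of 22 other folding enzymes, 0 rose and 6 fell in culture and 0 rose and 4 fell in marrow (2 and 1, and 1 and 3, after centring). Ero1lb, the paralog of Ero1l, went against it in marrow, where it had 16.6 to 26.7 RPM with IL4, against 50.3 to 63.6 RPM in controls (-1.31 ± 0.21, adjusted p = 0.00259), and was at -0.01 in culture. Prdx4, a peroxiredoxin that feeds disulfides into the ER, fell in marrow (-1.86 ± 0.40, adjusted p = 0.0123), with 5.53 to 20.3 RPM in IL4 libraries against 42.4 to 58.3 RPM in controls, and in culture (-0.69, adjusted p = 0.0267; -0.33 after centring, adjusted p = 0.236). Serp1, a protein that steadies the channel under stress, fell in culture on both scalings (-1.12 ± 0.13, adjusted p = 0.000134; -0.76 after centring, adjusted p = 0.00119). Of 15 genes of the signal recognition particle and targeting, 0 rose and 3 fell in culture, among them Tram1 (-0.91, adjusted p = 0.0018; -0.54 after centring, adjusted p = 0.0242), and 0 passed in marrow by limma (1 rose at an unadjusted p under 0.05). Of 30 genes of transport from ER to Golgi, 1 rose and 4 fell in culture and 4 rose and 0 fell in marrow. After centring, 1 of the 30 rose and 0 fell in culture, and 5 rose and 0 fell in marrow. Mcfd2, part of a cargo receptor for coagulation factors, had 136 to 194 RPM in marrow IL4 libraries, against 37.8 to 58.3 RPM in marrow controls (1.80 ± 0.21, adjusted p = 0.000654), and Surf4, a cargo receptor, rose there by 0.78 (adjusted p = 0.00683) and fell in culture (-0.39, adjusted p = 0.0404; -0.03 after centring). Of 22 glycosylation genes, 0 rose and 4 fell in culture, with the smallest p for the mannosyltransferase gene Alg1 (-0.88, adjusted p = 0.00372; -0.52 after centring, adjusted p = 0.0494), and 2 rose and 1 fell in marrow, the risers being Krtcap2 (1.18, adjusted p = 0.0235) and Alg2 (1.09, adjusted p = 0.00848). Of 21 other genes of ER-associated degradation, 2 rose and 3 fell in culture and 1 rose and 1 fell in marrow, where Rnf139, a membrane ubiquitin ligase, fell by 1.03 (adjusted p = 0.0124). After centring, 4 of these 21 rose and 0 fell in culture, and 3 rose and 1 fell in marrow. For the 22 glycosylation genes it was 1 and 1 in culture, and 3 and 0 in marrow. For the 15 targeting genes it was 0 and 1 in culture, and 1 and 0 in marrow.

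Of the 8 genes whose promoter held the stress response element shown above, 0 rose and 1 (Canx) fell in culture. Over all genes 7.96% rose and 32.6% fell there. In marrow 2 (Calr and Hspa5) rose and 1 (Syvn1) fell, against 6.70% and 11.5% of all genes. The calls of these 4 genes were lost without some single libraries, as given above. After centring, Dnajc3 rose and none of the 8 fell in culture by limma, against 14.4% and 12.7% of all genes. Calr and Hspa5 rose and none fell in marrow on that scale, against 9.45% and 8.92%. Of Ero1l and Txndc5, the genes called in both experiments on the deposited scale, Txndc5 held no such element in this window but held TGACGTGG. For Ero1l no such element was found, but whether Ero1l was among the 41 genes with a promoter sequence was not recorded.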

How the data were processed

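RNA was taken up with the RNeasy Micro kit and sequenced from TruSeq RNA v2 libraries, per the labels' protocols. TopHat2 2.0.13, bcl2fastq and build mm10 are named in the submitters' processing notes. The sources used here name no counting tool, gene filter, normalization or use of strand. The authors deposited log2 values of 9474 genes in a table for each experiment. From these, whole reads were recovered for 9438 genes (99.6%; largest residual 0.000622 log2 under 100 reads), as log2 of reads plus 0.5 with a constant for each gene and each library. Reads per 1000000 (RPM) are of the recovered total, and exon lengths are from GENCODE.

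Each table was tested alone with limma 3.58.1 (R 4.3.3, mean-variance trend, two-sided, Benjamini-Hochberg over 9474 genes, threshold 0.05), and the difference of responses in 1 fit over all 14 libraries. Fold changes are on the deposited log2 scale, which understates those of low genes. Tables and figures used Python 3.11.15, pandas 2.3.3, scipy 1.17.1 and matplotlib 3.10.9. The procedure was tested on simulated data. Alternatives were median centring, quantile normalization, no variance trend, a filter at the 25th percentile, a pseudocount of 2, a replicate block, a z of the difference and leaving out each library; a trend on reads, combinations with centring and leaving out both culture libraries numbered 4 were added after seeing the data. Genes given with a value in every library were, per comparison, among those past the threshold, the 5 that rose most and the 5 that fell most, the sensors with Xbp1, Hspa5, Hsp90b1, Calr, Canx, P4hb, Sec61a1, Ero1l and Herpud1, and the 6 smallest p-values of the difference; of other pathway genes, up to 2 per list and comparison. Values in every library of further genes were given after they were seen. The genes and lists were chosen with earlier results of these data known.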

Additional observations from a re-analysis of the deposited data

Results flagged for a closer look

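Ero1l in culture IL4 library 4 had a log2 value of 5.84 (72.8 RPM), against 7.81 to 8.21 in the other 3 IL4 libraries, a gap of 0.83 of the group's range. In all, 44 groups of 4 libraries were examined for 22 genes, of which this was the 1 picked out, and chance picks out about 1 in 20 groups.

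The response to IL4 differed between culture and marrow in 9 of the 50 genes by limma's interaction term, all 9 lower in culture. Of all genes 23.1% differed, 16.6% lower in culture and 6.45% higher. The number lower in culture was thus close to the share of all genes, and whether it exceeded that share was not tested. Culture response minus marrow response was -0.76 for Derl1 (adjusted p = 0.00198), -1.16 for Sec61b (0.00301), -1.04 for Xbp1 (0.00649), -1.03 for Ddost (0.00745), -0.76 for P4hb (0.0125), -1.0 for Ssr2 (0.0154), -0.79 for Stt3a (0.0233), -0.63 for Sec61a1 (0.0357) and -0.75 for Spcs2 (0.048). After median centring, Stt3a (-0.53, adjusted p = 0.104), Sec61a1 (-0.37, 0.176) and Spcs2 (-0.49, 0.183) no longer passed.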

How the results depend on the processing

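Scaling moved the culture counts most. Of the 50 genes, 12 rose and 0 fell after median centring, 8 and 0 after quantile normalization, 11 and 0 with centring and the replicate block, and 12 and 2 with centring and without both libraries numbered 4. With 1 library left out, 2 to 3 rose and 6 to 13 fell (8, 10 or 11, and 0 to 2, after centring). The replicate block left 6 falls in culture. Same-numbered libraries correlated at -0.05 to 0.06, so the numbers were not taken to pair the samples; in marrow each of 3 pairs correlated best with its own number, in culture 1 of 4. Over all genes, culture calls numbered 2297 with centring and the block and 2995 to 4004 with 1 library left out, and marrow calls 1104 to 1460. In marrow, 16 genes rose and 1 fell after centring, 17 and 1 with centring and the block, and 5 rose without a variance trend; with 1 library left out 4 to 11 rose and 0 to 2 fell (8 to 12 and 0 to 1 after centring). Other pathway genes called in culture numbered 16 after centring, 15 with centring and the block, 17 after quantile normalization and 17 to 32 with 1 library left out, and in marrow 11 to 15. The difference of responses passed for 14 genes by the z of the difference and 6 to 15 with 1 library left out, the highest without culture control library 4. The cause was not tested.

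Directions turned for some genes, each of which did not pass on the deposited scale in that experiment. In culture, centring with or without the block gave Xbp1 0.14, Hsp90b1 0.24, Calr 0.16, Sec61a1 0.13, Herpud1 0.32 and Derl1 0.13, and quantile normalization gave Xbp1 0.06 and Herpud1 0.33. Without both libraries numbered 4, P4hb was -0.05 and Ssr4 -0.06. With 1 library left out, P4hb ranged from -0.02 to 0.16, Syvn1 from -0.09 to 0.22, Ern1 from -0.16 to 0.38 and Herpud1 from -0.18 to 0.05. In marrow, Dad1 was 0.01 and Atf6 0.09 after centring with or without the block, 0.02 and 0.09 after quantile normalization, and -0.21 to 0.09 and -0.17 to 0.21 with 1 library left out, where Ern1 ranged from -0.10 to 0.20. Of 681 values of single genes under alternatives, 566 kept direction and side of the threshold, 55 fell under it, 20 passed it and 40 turned direction. Genes of few reads, such as Sec61g, are limited by depth.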
